A study of Mus musculus with 6 samples.

Results

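The genes of polyamine metabolism are described here in mouse quadriceps muscle. The set comprises 10 genes taken by symbol for their function, but it was chosen with earlier results of these data known. They are the synthetic enzymes Odc1, Amd1, Amd2, Srm and Sms, the antizymes Oaz1 and Oaz2, and the catabolic enzymes Sat1, Smox and Paox. All 10 were found among the 33641 gene symbols of the expression table, where they account for 57 of 105129 transcript rows.

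The study compared muscle of mice that carry a copy of the human variant rs6190 with muscle of mice that do not. The variant lies in the gene of the glucocorticoid receptor, a hormone-activated transcription factor encoded in the mouse by Nr3c1. The 3 libraries of the first group come from mice homozygous for it (rs6190 allele +/+, called homozygous below), and the 3 of the second from littermates homozygous for the reference allele (ref allele +/+, called WT). All were males of about 16 weeks (4 months in the sample labels) with heterozygous parents, and quadriceps was taken at about ZT4, a clock time counted from lights on. The allele was inherited and not limited to muscle, and no source used here names the strain. Each library was a poly-A selected, stranded RNA-seq library from pulverised muscle with all its cell types, so a smaller share of a cell type in the sample and less RNA per cell of that type cannot be told apart. Values are TPM, transcript abundances corrected for transcript length and scaled to the same total of 1000000 in every library, so they carry no sequencing depth.

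Polyamines are small, positively charged molecules that bind RNA and support translation and growth. Ornithine decarboxylase makes putrescine from ornithine, and spermidine synthase and spermine synthase extend it with aminopropyl groups that come from decarboxylated S-adenosylmethionine, the product of S-adenosylmethionine decarboxylase. Antizymes bind ornithine decarboxylase, deliver it to the proteasome and limit polyamine uptake, and their own synthesis requires a ribosomal frameshift that polyamines promote. In the opposite direction, spermidine/spermine acetyltransferase and polyamine oxidase return the larger polyamines to smaller ones by acetylation and oxidation, and spermine oxidase converts spermine to spermidine directly. In skeletal muscle, the genes of spermine oxidase and S-adenosylmethionine decarboxylase are known to be highly expressed and to respond to denervation, disuse and androgens.

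Sequences are shown first where they bear on how a value can be read. Amd1 and Amd2 are near-identical copies of S-adenosylmethionine decarboxylase, and their coding sequences in the main transcripts (ENSMUST00000099945.5 and ENSMUST00000080898.3, GENCODE M21 on GRCm38) differed at 1 of 1005 bases. That substitution is G796C, with Amd1 given first and positions counted from 1 at the start codon, and it stands in capitals in the stretch from position 766 to 825.
Amd1: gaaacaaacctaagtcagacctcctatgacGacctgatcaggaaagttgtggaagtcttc
Amd2: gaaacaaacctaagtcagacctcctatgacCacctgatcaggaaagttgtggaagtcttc
Over the whole transcripts, of 3204 and 3218 nt, 28 of 3218 aligned columns differed. Of the 31-base windows of the Amd2 transcript, 90.9% also occurred in a transcript of Amd1, so the division of reads between the copies is uncertain and rests on the few bases where they differ.

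The copies have different upstream regions. Amd1 has 8 exons in its main transcript, and Amd2 is a single exon, elsewhere on the same chromosome. The 250 bases before the annotated start of each, and of Smox for comparison, are from RefSeq on GRCm38.p6, with the GC box GGGCGG (either strand) in capitals.
Amd1 (chr10:40302189-40302438, minus strand): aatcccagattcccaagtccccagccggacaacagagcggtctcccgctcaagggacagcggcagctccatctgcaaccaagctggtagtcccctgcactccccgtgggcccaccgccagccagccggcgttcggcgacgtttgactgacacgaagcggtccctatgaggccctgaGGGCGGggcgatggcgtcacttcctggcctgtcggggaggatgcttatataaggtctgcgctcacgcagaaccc
Amd2 (chr10:35711892-35712141, minus strand): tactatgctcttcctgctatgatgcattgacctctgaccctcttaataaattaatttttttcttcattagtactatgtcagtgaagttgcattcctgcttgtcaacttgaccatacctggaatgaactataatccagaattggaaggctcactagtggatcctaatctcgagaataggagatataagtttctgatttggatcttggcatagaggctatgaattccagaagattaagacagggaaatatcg
Smox (chr2:131491612-131491861, plus strand): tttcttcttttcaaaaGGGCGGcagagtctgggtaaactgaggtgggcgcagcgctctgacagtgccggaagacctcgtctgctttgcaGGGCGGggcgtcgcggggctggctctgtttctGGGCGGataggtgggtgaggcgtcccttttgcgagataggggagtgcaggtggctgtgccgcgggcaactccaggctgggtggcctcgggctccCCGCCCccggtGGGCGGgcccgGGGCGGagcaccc
The Smox window held 6 GC boxes and 68.0% G or C, the Amd1 window 1 GC box and 64.4%, and the Amd2 window none and 37.6%. A GC box was found in 32.7% of 32851 such RefSeq windows. The E-box CACGTG, present in 6.02% of all windows, was found in 1 window of Sms, and the hexamer bound by the glucocorticoid receptor, AGAACA on either strand, present in 16.1%, was found once each in the Oaz2 and Sat1 windows. The receptor's full palindromic element, this hexamer and its reverse complement with a spacer between them, occurred in 0.00913% of all windows and in none of those of the members. RefSeq windows were at hand for 9 of the 10 members, all but Srm.

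Antizyme transcripts carry the stop codon that the frameshift bypasses. The shift site, TCC followed by the stop codon TGA, is in capitals in the transcripts of Oaz1 (ENSMUST00000179620.7) and Oaz2 (ENSMUST00000128928.7).
Oaz1: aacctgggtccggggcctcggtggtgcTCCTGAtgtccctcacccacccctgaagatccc
Oaz2: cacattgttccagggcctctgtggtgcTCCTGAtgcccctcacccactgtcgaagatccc
The annotation writes the frameshift into some of its protein-coding models by leaving out bases at this place, and the main Oaz2 models do so differently. The Oaz1 transcript printed above is also annotated as protein coding, but it holds the uninterrupted site. The model ENSMUST00000153700.8 leaves out 1 base (chr9, position 65686272) and the model ENSMUST00000046490.13 leaves out 4 bases starting at position 65686269.
Oaz2, ENSMUST00000153700.8: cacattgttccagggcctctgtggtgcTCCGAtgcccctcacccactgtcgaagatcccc
Oaz2, ENSMUST00000046490.13: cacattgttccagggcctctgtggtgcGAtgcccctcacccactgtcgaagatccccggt
At this junction they differ by 3 bases, and all their other exons are the same. Neither model holds the uninterrupted TCCTGA printed above. The table's division of reads between them therefore rests on how the annotation writes the frameshift, and it cannot be read as a division between forms of the mRNA.

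Among the 6 libraries, WT replicate 3 stood apart. Its correlation with the others over all tested genes was 0.951 to 0.965, against 0.972 to 0.987 between the others. Mitochondrially encoded transcripts took 20.9%, 27.3% and 25.3% of TPM in homozygous replicates 1 to 3. In WT replicates 1 to 3 they took 26.2%, 33.9% and 14.3%. The summed TPM of 9 slow-fibre markers was 1669 to 9107 in homozygous and 205 to 1561 in WT libraries, with the lowest value in WT replicate 3, and that of 10 fast-fibre markers was highest in the same library. The sum of 5 Schwann cell markers (28.8 to 105 TPM against 16.1 to 25.1) also did not overlap between the groups. The sum of 6 immune markers was lower in homozygous libraries (29.7 to 59.8 TPM against 85.6 to 105), but most of it was the immunoglobulin gene Ighm (23.2 to 54.5 TPM against 81.0 to 103). The macrophage marker Cd68 did not overlap in the other direction (3.34 to 4.73 TPM against 1.08 to 2.92), and the mean log2(TPM + 1) of the 6 immune markers overlapped (1.33 to 1.64 against 1.49 to 1.70). The skeletal muscle markers, Ckm, Acta1, Ttn, Mb, Pygm and Myh4, together made up 48235 to 82698 TPM in every library, and no marker of any list was at 0 throughout. Nr3c1 itself was at 20.01, 19.7 and 19.5 TPM with the variant and at 11.5, 14.8 and 8.07 TPM without it, in replicates 1 to 3, a log2 fold change of 0.77 (SE 0.20) with an adjusted p of 0.168 in limma.

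Differences are log2 fold changes of TPM + 1, homozygous relative to WT, from limma fitted to all 11099 genes that reached 1 TPM in at least 3 libraries, with Benjamini-Hochberg adjustment over all of them and a threshold of 0.05. All 10 members were tested and 0 passed, as did 0.0% of all genes. At an unadjusted p under 0.05, 1 member was higher in homozygous muscle (Sat1), beside 23.7% of all genes, and 2 were lower (Amd1 and Smox), beside 0.55% of all genes. That split of all genes depended on scaling, with 2636 higher and 61 lower as deposited, 504 and 482 with quantile normalization and 405 and 512 with median centring. The median log2 fold change of the members was 0.07, that of all tested genes was 0.26, and 6 members were above 0 and 4 below, while 9526 of all 11099 genes were above 0. That median was -0.007 with quantile normalization and -0.037 with median centring, and a member's difference relative to it is given for the members farthest from it. The labels number the libraries without naming the animals, so the p-values measure the spread between these libraries, and an exact permutation test of 1 gene with 3 against 3 could not fall below 0.1.

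**Figure D1:**
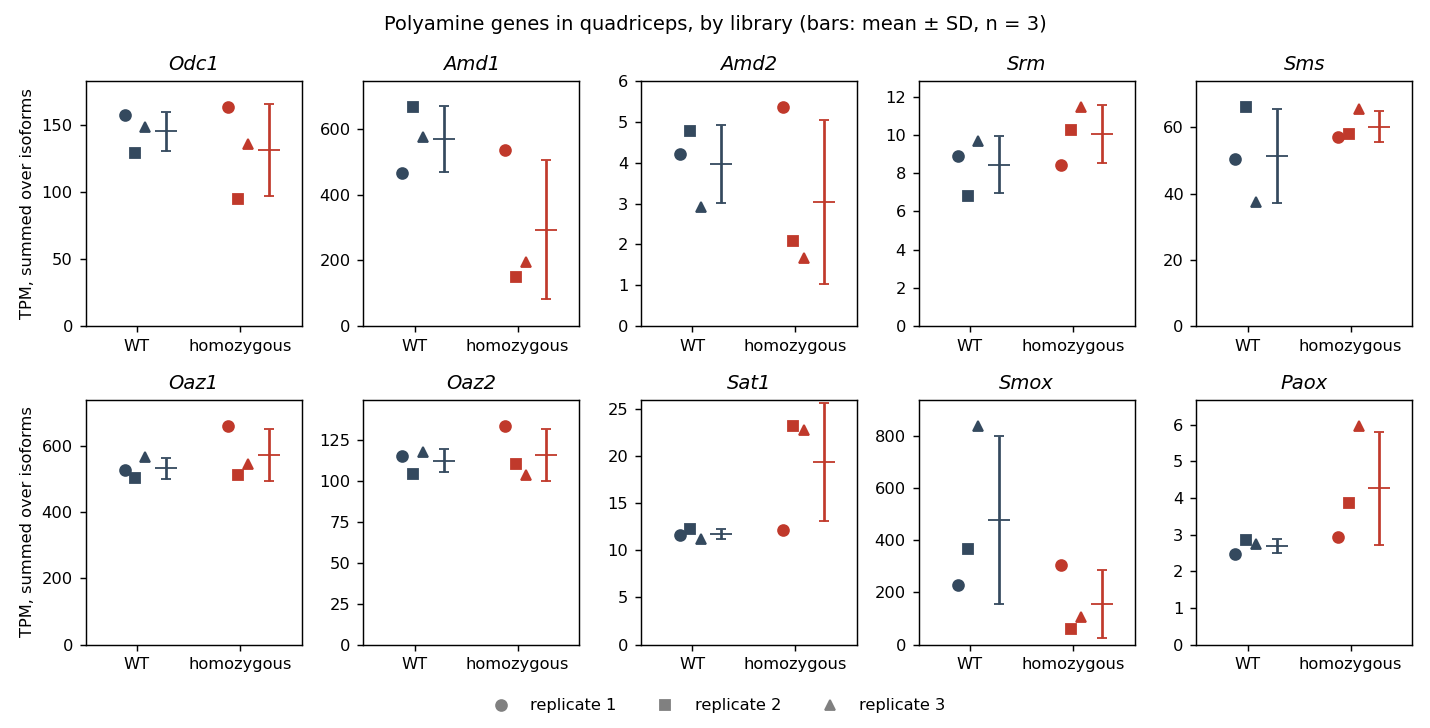
TPM of each polyamine gene (y axis, from 0, summed over isoforms) in the WT and homozygous libraries, 1 point per library with its shape giving the replicate number, and bars for the mean ± SD (n = 3). Homozygous replicates 2 and 3 lie low for Amd1 and Smox and high for Sat1, and Paox is the 1 gene whose groups do not overlap.

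Ornithine decarboxylase, which makes putrescine at the head of the pathway, was expressed from Odc1 (chr12:17544794-17551505, plus strand) in both groups. Odc1 was 163, 95.02 and 135 TPM in homozygous replicates 1, 2 and 3 and 158, 129 and 148 TPM in WT replicates 1, 2 and 3. The groups overlapped, with the lowest value in homozygous replicate 2. The log2 fold change was -0.17 (SE 0.20), with an adjusted p of 0.578. It depended on scaling, at -0.35 with quantile normalization and -0.47 with median centring (adjusted p = 0.608 and 0.613 in limma).

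Amd1 (chr10:40287458-40302186, minus strand), which supplies the aminopropyl donor for spermidine and spermine, was the most abundant synthetic gene and had a lower mean in homozygous muscle. Amd1 was 538, 149 and 196 TPM in homozygous replicates 1 to 3 and 468, 668 and 578 TPM in WT replicates 1 to 3. Homozygous replicates 2 and 3 were below every WT library, but homozygous replicate 1 lay within the WT range, so the groups overlapped. The means were 294 ± 212 TPM and 571 ± 99.95 TPM (SD, n = 3 each), a ratio of 0.515. The log2 fold change was -1.17 (SE 0.44, 95% interval -2.20 to -0.14), which is -1.44 relative to the median of all genes, with an unadjusted p of 0.0313 and an adjusted p of 0.185 in limma. It was -1.72 without homozygous replicate 1 (adjusted p = 0.104) and -1.15 without WT replicate 3 (adjusted p = 0.324).

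Amd2 (chr10:35708675-35711892, minus strand), the copy of Amd1, was listed far below it. Amd2 was 5.36, 2.09 and 1.67 TPM in homozygous and 4.21, 4.78 and 2.90 TPM in WT libraries, with overlapping groups and an adjusted p of 0.447 for a log2 fold change of -0.39 (SE 0.33). Within each library Amd1 was 71.6 to 199 times as abundant as Amd2 per length, and the order of the homozygous libraries for Amd2 was led by replicate 1, as for Amd1. Since most Amd2 windows also occur in Amd1, the Amd2 value may hold reads of Amd1, and its pattern was not taken as a second measurement.

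The aminopropyl transferases Srm and Sms, which make spermidine and spermine, had overlapping groups and did not pass the test. Spermidine synthase, Srm (chr4:148591503-148594993, plus strand), was 8.42, 10.2 and 11.4 TPM in homozygous and 8.88, 6.78 and 9.66 TPM in WT libraries, with means of 10.03 ± 1.52 and 8.44 ± 1.49 TPM (SD, n = 3 each). For Srm the log2 fold change was 0.23 (SE 0.18) with an adjusted p of 0.410. Spermine synthase, Sms (chrX:157443855-157492287, minus strand), was 57.1, 58.1 and 65.5 TPM in homozygous and 50.6, 66.05 and 37.4 TPM in WT libraries, where replicates 2 and 3 set both ends of the range. Its log2 fold change was 0.26 (SE 0.20) with an adjusted p of 0.408. Both values lay close to the median of all genes, and with median centring of the libraries they were -0.07 for Srm and -0.04 for Sms.

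The antizymes differed little between libraries. Oaz1 (chr10:80826656-80829290, plus strand), the general antizyme, was 662, 512 and 547 TPM in homozygous and 527, 505 and 567 TPM in WT libraries. Its log2 fold change was 0.10 (SE 0.15, adjusted p = 0.663), and it was the most abundant member in 3 of 3 homozygous and in 1 of 3 WT libraries. Oaz2 (chr9:65668001-65690300, plus strand), a second antizyme with the same frameshift, was 134, 111 and 103 TPM in homozygous and 115, 104 and 118 TPM in WT libraries. Its log2 fold change was 0.04 (SE 0.14, adjusted p = 0.869). The groups overlapped for both genes, and both log2 fold changes turned negative with quantile normalization, at -0.04 for Oaz1 and -0.13 for Oaz2.

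Sat1 (chrX:155213132-155216449, minus strand) encodes the acetyltransferase that opens the route back from spermine and spermidine, and it was higher in 2 of the 3 homozygous libraries. Sat1 was 12.20, 23.2 and 22.8 TPM in homozygous replicates 1 to 3 and 11.6, 12.25 and 11.2 TPM in WT replicates 1 to 3. The WT libraries lay within about 1 TPM of each other, homozygous replicates 2 and 3 lay near 23, and homozygous replicate 1 lay among the WT values. The means were 19.4 ± 6.24 TPM and 11.7 ± 0.513 TPM (SD, n = 3 each). In limma the log2 fold change was 0.63 (SE 0.24), with an unadjusted p of 0.0284 and an adjusted p of 0.181 in limma. It was 0.92 without homozygous replicate 1 and 0.61 without WT replicate 3.

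Paox (chr7:140115799-140137224, plus strand), the oxidase that acts on the acetylated products of Sat1, was low throughout. Paox was 2.95, 3.88 and 5.97 TPM in homozygous and 2.48, 2.86 and 2.73 TPM in WT libraries. It was the 1 member whose groups did not overlap with homozygous above WT, a pattern of 34.7% of all genes tested, and 0 members did not overlap with homozygous below, beside 0.73% of all genes. Its log2 fold change was 0.47 (SE 0.22), with an adjusted p of 0.228.

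Smox (chr2:131491496-131525922, plus strand), the spermine oxidase, had the largest SE of the members. Smox was 306, 60.3 and 104 TPM in homozygous replicates 1 to 3 and 228, 365 and 839 TPM in WT replicates 1 to 3. Homozygous replicates 2 and 3 were below all WT libraries, homozygous replicate 1 was above WT replicate 1, and WT replicate 3 was more than 2 times any other library. The means were 157 ± 131 TPM and 477 ± 320 TPM (SD, n = 3 each), a ratio of 0.328. The log2 fold change was -1.72 (SE 0.70, 95% interval -3.42 to -0.02), or -1.99 relative to the median of all genes, with an unadjusted p of 0.0476 and an adjusted p of 0.203 in limma. Without WT replicate 3 it was -1.21, with an unadjusted p of 0.184 and an adjusted p of 0.390, and without homozygous replicate 1 it was -2.37.

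**Figure D2:**
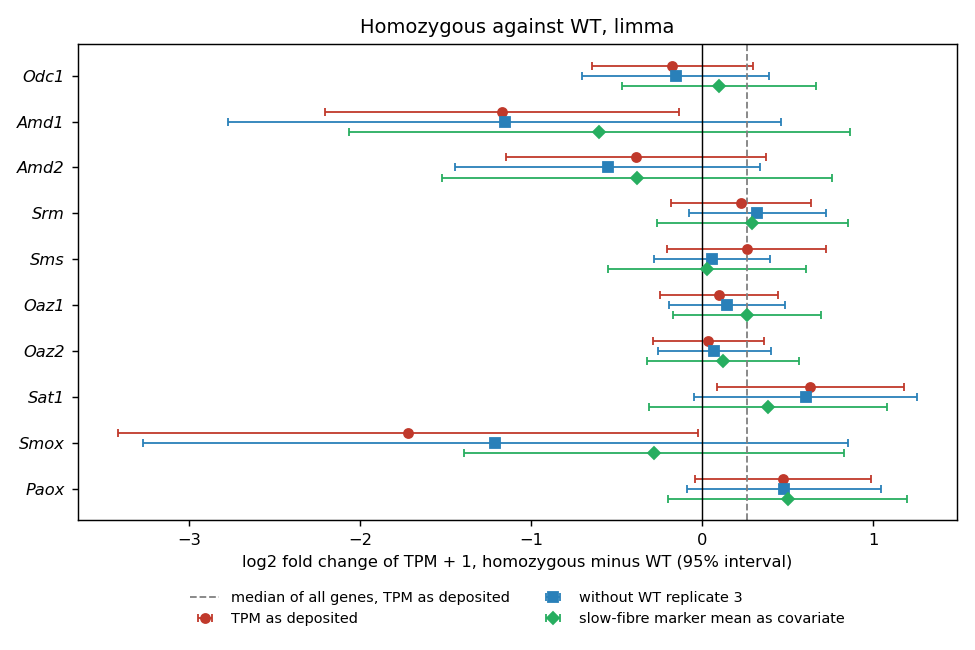
Log2 fold change of each polyamine gene, homozygous minus WT (x axis, TPM + 1), with 95% intervals from limma, for all libraries (circles), without WT replicate 3 (squares) and with the slow-fibre marker mean as a covariate (diamonds). The dashed line is the median of all tested genes in the fit shown by circles, 0.26. That median was 0.20 without WT replicate 3 and 0.16 with the covariate. Smox moves from -1.72 to -1.21 and -0.28 over these fits, and Amd1 from -1.17 to -1.15 and -0.60.

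Smox and Amd1 were low and Sat1 was high in the same pair of homozygous libraries, replicates 2 and 3. Within each library, relative to Odc1, Amd1 was 3.298, 1.57 and 1.45 in homozygous and 2.97, 5.17 and 3.90 in WT replicates 1 to 3. Smox relative to Odc1 was 1.88, 0.634 and 0.766 in homozygous and 1.45, 2.83 and 5.66 in WT libraries, and Sat1 relative to Odc1 was 0.0748, 0.244 and 0.168 against 0.0735, 0.0948 and 0.0759. A ratio within a library does not depend on the scaling between libraries, and the 3 ratios kept the overlap seen in the levels, with homozygous replicate 1 on the WT side.

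The slow-fibre markers were highest in the same pair of homozygous libraries. The mean log2(TPM + 1) of the 9 markers was 6.58, 9.19 and 6.95 in homozygous replicates 1 to 3 and 6.49, 5.90 and 3.40 in WT replicates 1 to 3. Within each genotype, the library with more slow-fibre RNA had less Smox, with the highest Smox value in the WT library that had the least. Over the 6 libraries, Smox and the marker mean gave Pearson's r = -0.94 (exact permutation p = 0.00694, two-sided, 0.0694 after Benjamini-Hochberg adjustment over the 10 members) and Spearman's rho = -0.94 (exact permutation p = 0.0167, adjusted 0.167). Without homozygous replicate 2 and WT replicate 3, the libraries farthest from the median of the markers, r was -0.84.

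For Amd1, r was -0.76 (exact permutation p = 0.0375, adjusted 0.130) and rho -0.89 (exact permutation p = 0.0333, adjusted 0.167), with r = -0.86 without the same libraries. For Sat1, r was 0.73 (exact permutation p = 0.0389, adjusted 0.130) and rho 0.83 (exact permutation p = 0.0583, adjusted 0.194), with r = 0.69 without them. None of the 10 relations passed 0.05 after adjustment, and 3 libraries per genotype are too few for a correlation within a genotype. The permutations exchanged libraries between the genotypes, so their p-values cannot separate a relation to the markers from a difference between the genotypes. With the marker mean added to the model as a covariate, the log2 fold change of Smox was -0.28 (adjusted p = 0.894), that of Amd1 was -0.60 (adjusted p = 0.810) and that of Sat1 was 0.38. The slow-fibre means of the genotypes did not overlap, so fibre composition and genotype cannot be told apart here, and the part of the Schwann cell and immune markers in these differences was not tested.

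**Figure D3:**
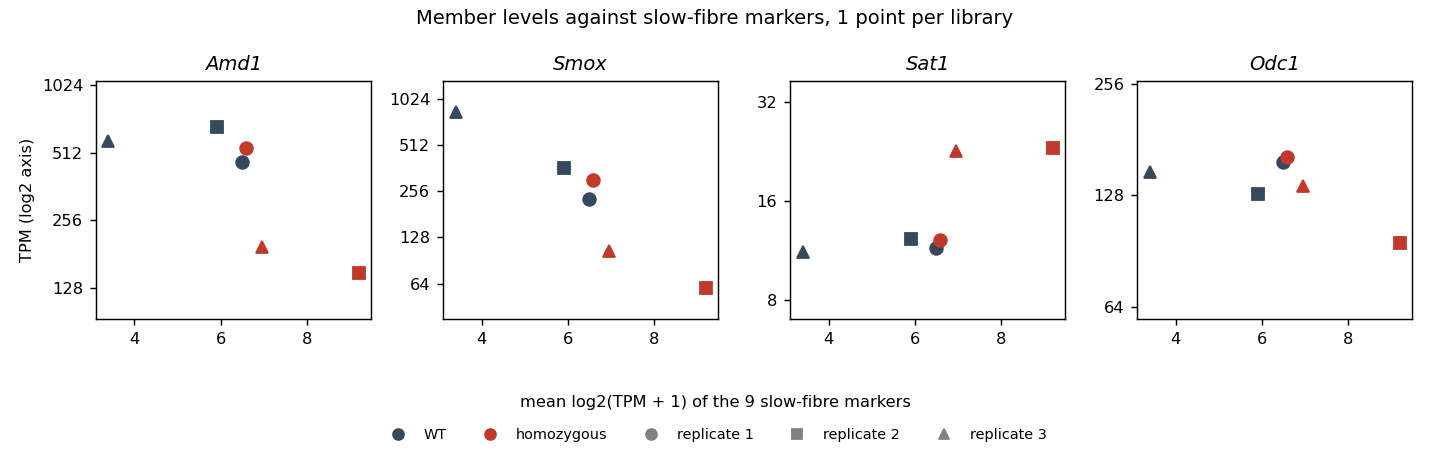
TPM of Amd1, Smox, Sat1 and Odc1 (y axis, log2 axis) against the mean log2(TPM + 1) of 9 slow-fibre markers (x axis), 1 point per library, coloured by genotype. Smox runs from its highest value in WT replicate 3, at a marker mean of 3.40, to its lowest in homozygous replicate 2, at 9.19, and WT replicate 1 and homozygous replicate 1 lie side by side in every panel.

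Of the 57 transcript rows of the members, 33 belong to protein-coding models and 1, an Oaz2 row, was at 0 in all 6 libraries. The isoform fit tested 39 of them among 21165 rows, and 0 passed the adjusted threshold, beside 0.0425% of all rows. At an unadjusted p under 0.05, 1 member row was higher in homozygous muscle, beside 14.2% of all rows, and 5 were lower, beside 1.52%. The split of all rows depended on scaling, with 3001 higher and 322 lower as deposited. It was 1075 and 944 with quantile normalization and 1055 and 915 with median centring. The 5 lower rows were the main row of Amd1 and 4 rows of Smox, and the higher one was a row of Oaz2. The groups did not overlap for 3 rows with homozygous above, beside 25.6% of all rows, and for 3 with homozygous below, beside 2.11%. Rows of 1 gene share reads, so they are not separate observations of it. These rates are for levels. How often the share of a row in its gene did not overlap was not computed over all rows, so the shares below have no general rate beside them.

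Smox had the most rows, 17, of which 11 are coding. The coding model ENSMUST00000028806.11, with 7 exons and 2270 nt, was 117, 27.3 and 46.4 TPM in homozygous and 89.0, 86.3 and 163 TPM in WT replicates 1 to 3. A short retained-intron model of 2 exons and 720 nt at the end of the gene, ENSMUST00000151143.1 (chr2:131521899-131525141), was 10.8, 3.11 and 4.63 TPM in homozygous and 17.6, 65.6 and 244 TPM in WT libraries. It made up 3.54%, 5.17% and 4.46% of Smox in homozygous and 7.69%, 17.95% and 29.1% in WT libraries, and neither its level nor its share overlapped between the groups. Its log2 fold change was -3.37 (SE 0.91), with an unadjusted p of 0.00855 and an adjusted p of 0.264 in limma. The value was -2.44 without WT replicate 3, -4.30 without WT replicate 1 and -1.51 with the slow-fibre covariate, with adjusted p of 0.287, 0.118 and 0.910.

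The coding models together held 83.7%, 85.4% and 86.9% of Smox in homozygous and 83.0%, 69.7% and 60.01% in WT libraries, again without overlap. Summed over coding models alone, Smox was 256, 51.5 and 90.2 TPM in homozygous and 189, 254 and 503 TPM in WT libraries, and the groups overlapped, with homozygous replicate 1 above WT replicates 1 and 2. The coding models ENSMUST00000110186.8, ENSMUST00000110180.1 and ENSMUST00000110188.7 had log2 fold changes of -2.23, -2.45 and -1.90 with adjusted p of 0.274, 0.292 and 0.271. Of these, ENSMUST00000110188.7 did not overlap between groups, at 7.59, 1.09 and 2.64 TPM in homozygous and 10.1, 11.9 and 22.9 TPM in WT libraries.

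Oaz2 showed an even gene sum, which the table divided differently between its coding models. ENSMUST00000046490.13 was 68.7, 42.6 and 48.7 TPM in homozygous and 86.5, 71.2 and 66.6 TPM in WT libraries, and it made up 51.5%, 38.5% and 47.2% of Oaz2 against 75.2%, 68.3% and 56.6%, without overlap. ENSMUST00000153700.8 was 42.0, 48.1 and 35.3 TPM in homozygous and 11.1, 14.8 and 37.1 TPM in WT libraries, and its share was 31.4%, 43.5% and 34.2% against 9.61%, 14.2% and 31.5%. Their log2 fold changes were -0.50 (adjusted p = 0.319) and 1.13 (SE 0.42, adjusted p = 0.295). As printed above, these models differ only at the frameshift site, by 3 bases that the annotation leaves out differently, and neither holds the uninterrupted site. The division between them is an estimate from very little sequence and cannot be read as a change between forms of the mRNA.

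**Figure D4:**
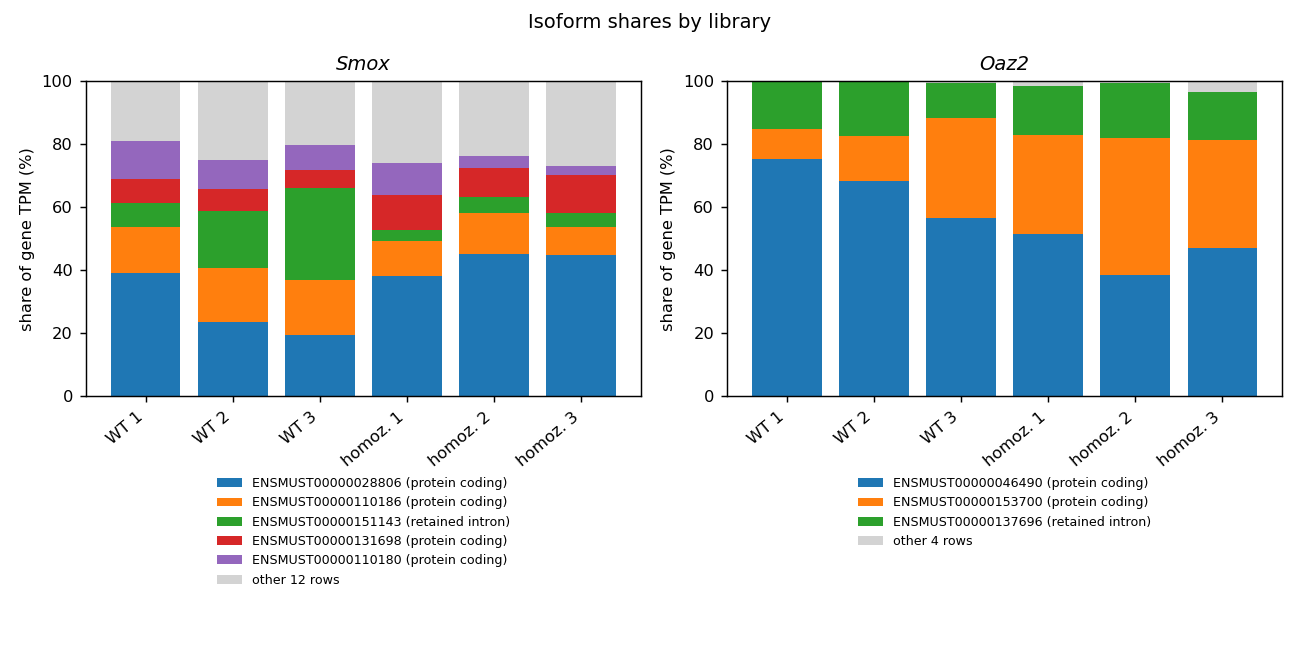
Share of the gene's TPM (y axis, percent) held by the transcript rows of Smox and Oaz2 with the highest mean share, stacked for each library, with the remaining rows in grey. The retained-intron row of Smox takes 3.54% to 5.17% in homozygous and 7.69% to 29.1% in WT libraries, and the Oaz2 model ENSMUST00000046490.13 takes a smaller share in each homozygous than in each WT library. The main Oaz2 coding models differ only in bases that the annotation leaves out, so their division cannot be read as forms of the mRNA.

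Other members were carried by a few rows. ENSMUST00000099945.5 held 97.3% to 99.3% of Amd1, and Odc1 had a single row. Oaz1 was divided between ENSMUST00000180036.7, with 54.2% to 57.3%, and ENSMUST00000179620.7, with 38.3% to 40.4%, in narrow ranges over all 6 libraries. Even so, the share of ENSMUST00000180036.7 did not overlap, at 56.8%, 57.1% and 57.3% in homozygous and 56.1%, 55.5% and 54.2% in WT libraries. In Sms, the model ENSMUST00000145477.7, annotated as a target of nonsense-mediated decay, was 14.7, 24.6 and 25.8 TPM in homozygous and 11.5, 18.3 and 5.04 TPM in WT libraries, with overlapping shares and an adjusted p of 0.342. Coding models made up 16.2% to 38.5% of Sat1, so most of the Sat1 sum lay on rows not annotated as protein coding. Its main coding model, ENSMUST00000026318.14, was 2.28, 7.91 and 6.02 TPM in homozygous and 4.09, 1.98 and 3.55 TPM in WT libraries, with overlapping groups and an adjusted p of 0.516. The retained-intron rows ENSMUST00000138944.7 and ENSMUST00000150046.1 had log2 fold changes of 0.63 and 0.49, with adjusted p of 0.338 and 0.326. The groups of ENSMUST00000150046.1 did not overlap, at 2.61, 4.31 and 3.42 TPM in homozygous and 2.11, 2.04 and 2.24 TPM in WT libraries. That pattern, with homozygous above, held for 25.6% of all rows tested. ENSMUST00000152463.7, a model of nonsense-mediated decay, had -0.008 (adjusted p = 0.986). The main coding models of Srm (ENSMUST00000006611.8) and Paox (ENSMUST00000097967.3) had log2 fold changes of 0.24 and 0.36, with adjusted p of 0.505 and 0.447.

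The wider pathway was followed in 31 further genes in lists set by function, of which 24 were tested and 0 passed the adjusted threshold. At an unadjusted p under 0.05, 3 of the 24 were higher in homozygous muscle (Azin1, Dhps and Max), beside 23.7% of all genes, and 0 were lower, beside 0.55%. The groups did not overlap, with homozygous above, for 4 of the 24, Azin1, Dohh, Slc3a2 and Max, beside 34.7% of all genes, so neither count of higher genes exceeded the general share. The median log2 fold change of the 24 genes was 0.18, and that of all genes was 0.26. By list, the medians were 0.20 for hypusination (3 of 4 genes tested), 0.01 for antizyme inhibitors and the third antizyme (3), 0.47 for further catabolism (Sat2, 1 of 2), 0.26 for transport (4), 0.29 for arginine and ornithine supply (3 of 7), -0.04 for S-adenosylmethionine supply and methionine salvage (7 of 8) and 0.18 for the Myc, Max and Mxd1 group that acts on Odc1 transcription (3).

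Azin1, the antizyme inhibitor that binds antizymes in place of ornithine decarboxylase, was 13.7, 10.6 and 12.6 TPM in homozygous and 7.57, 8.68 and 5.95 TPM in WT replicates 1 to 3. Every homozygous library was above every WT library. The means were 12.3 ± 1.57 TPM and 7.40 ± 1.38 TPM (SD, n = 3 each), and the log2 fold change was 0.67 (SE 0.17), with an unadjusted p of 0.0046 and an adjusted p of 0.168 in limma. Set against Oaz1 in the same library, Azin1 was 0.0208, 0.0208 and 0.0231 in homozygous and 0.0144, 0.0172 and 0.0105 in WT libraries. Oaz1 relative to Odc1 was 4.06, 5.39 and 4.04 against 3.35, 3.91 and 3.83. These were the 2 of 8 ratios computed whose groups did not overlap, and they were singled out after their values were seen. How often the ratio of other gene pairs did not overlap was not computed, so this count has no general rate beside it.

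Max, the partner through which Myc binds DNA, was 30.2, 31.7 and 32.0 TPM in homozygous and 18.6, 24.5 and 22.4 TPM in WT libraries, with a log2 fold change of 0.51 (SE 0.14, adjusted p = 0.168). Dohh, the hydroxylase that completes the spermidine-derived hypusine residue of the translation factor eIF5A, was 40.8, 42.8 and 38.7 TPM against 33.6, 34.4 and 38.0 TPM, a log2 fold change of 0.20 (adjusted p = 0.300). Slc3a2, the heavy chain of amino acid transporters that has also been tied to polyamine export, was 19.6, 21.6 and 21.1 TPM against 17.7, 18.2 and 18.4 TPM, a log2 fold change of 0.19 (adjusted p = 0.331). The differences of Dohh and Slc3a2 were below the median of all genes, and with quantile normalization they were -0.05 and -0.09. Azin1 and Max stayed above 0 under every alternative run.

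**Figure D5:**
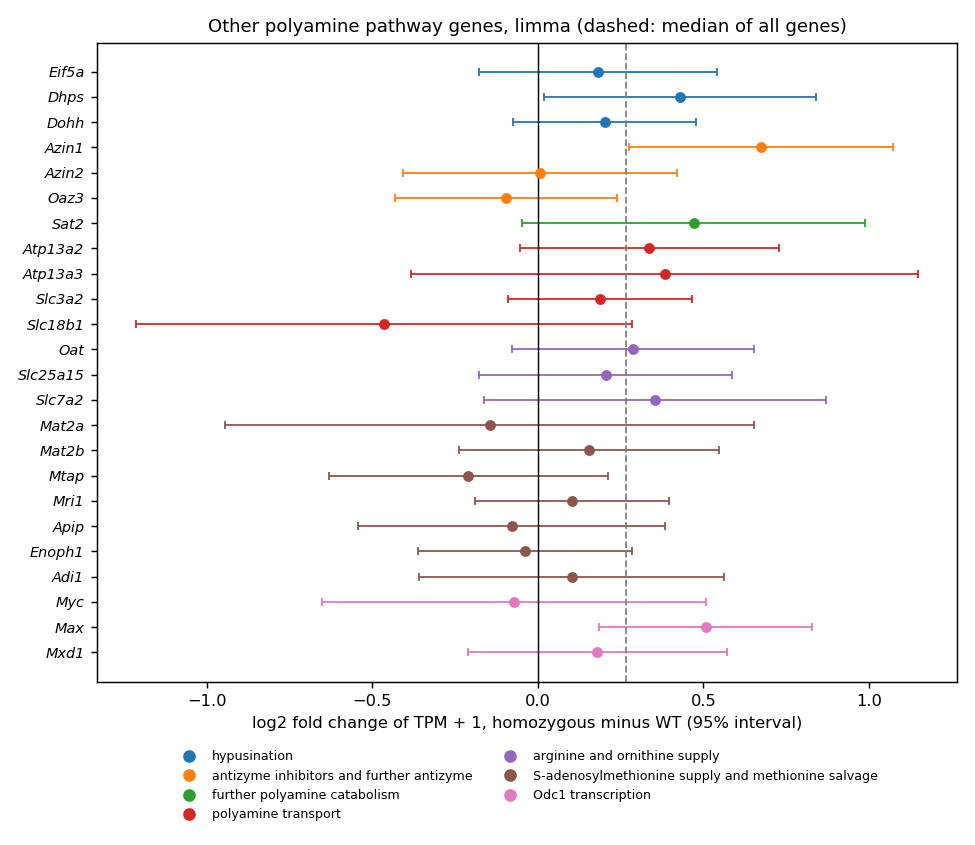
Log2 fold change of the tested genes of the wider polyamine pathway, homozygous minus WT (x axis, TPM + 1), with 95% intervals from limma, coloured by list, and the median of all tested genes, 0.26, as a dashed line. Azin1 at 0.67 and Max at 0.51 lie to the right of it, and the 7 tested genes of S-adenosylmethionine supply and methionine salvage lie to its left.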

How the data were processed

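Poly-A selected, stranded RNA-seq of quadriceps was made for 3 homozygous and 3 WT libraries, and groups were taken from the sample labels. The authors deposited TPM per Ensembl transcript, 1 column per library, per the file headers, with a sum of 1000000 in each library. FastQC, Trimmomatic, HISAT2, kallisto and the build mm10 are named in the submitters' processing notes, without versions. Each value column matched 1 library, leaving 0 unmatched.

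TPM were summed per gene symbol and tested as log2(TPM + 1) with limma 3.58.1 (R 4.3.3, trend and robust options, genotype only), since the table holds no counts. Genes or rows that reached 1 TPM in 3 or more libraries entered, and fold changes of low genes are understated. Positions and models are from GENCODE M21 (GRCm38), upstream windows from RefSeq (GRCm38.p6). The 14 alternatives were quantile normalization, median centring, no filter, a pseudocount of 0.1, each library left out, a replicate block, array weights, mitochondrial transcripts left out and a slow-fibre covariate. Fits were checked on simulated data in which 200 of 11099 genes were changed. At log2 changes of 0.5, 1 and 2, the fit recovered 0%, 37% and 86.5% of the changed genes, with 0, 5 and 12 false calls. The simulated noise was drawn independently for each gene, without effects shared by the genes of a library. These rates may therefore not hold for the real libraries, where WT replicate 3 stood apart. Correlations used Python 3.11.15 and scipy 1.17.1.

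The members, lists and alternatives were chosen with earlier results of these data known. Named were all members, member rows of at least 10% of the gene and 1 TPM or with an unadjusted p under 0.05, and pathway genes whose groups did not overlap. The replicate numbers of the groups are shared labels only and were not taken as pairs.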

Additional observations from a re-analysis of the deposited data

How the results depend on the processing

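No member gene and no member transcript row passed the adjusted threshold in limma under any of the 14 alternatives. Smox, Amd1, Amd2, Sat1 and Paox kept their direction in all of them, with ranges of -2.37 to -0.28, -1.72 to -0.60, -0.77 to -0.14, 0.33 to 0.92 and 0.17 to 0.66. Of all tested genes, against 0 in the fit reported, 810 passed with array weights, where WT replicate 3 weighed 0.199 and WT replicate 1 weighed 2.50, and 0 to 2 passed when 1 library was left out. Array weights also called 3 of the pathway genes, Azin1 (0.57, adjusted p = 0.0434), Dhps (0.57, adjusted p = 0.0432) and Max (0.63, adjusted p = 0.0396), as well as Nr3c1 (0.67, adjusted p = 0.0396), while Sat1 missed the threshold (0.75, adjusted p = 0.0537). For Azin1 and Max the adjusted p ranged up to 0.785 over the alternatives. Of all transcript rows, against 9 in the fit reported, 3 passed with quantile normalization, 5 with median centring, 0 without a filter, 4 with a pseudocount of 0.1, 14 with array weights, 5 without mitochondrial transcripts, 0 with the slow-fibre covariate and 0 to 36 with 1 library left out. The labels number the libraries 1 to 3 in both groups, but same-numbered libraries did not deviate together (correlations of -0.07, 0.06 and -0.01), and with the number as a replicate block 0 members, 0 genes, 0 pathway genes and 0 transcript rows passed.

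Small differences changed sign. With quantile normalization the log2 fold change was -0.049 for Srm, -0.040 for Oaz1, -0.13 for Oaz2, -0.048 for Dohh and -0.095 for Slc3a2. With median centring it was -0.073 for Srm, -0.041 for Sms, -0.20 for Oaz1, -0.26 for Oaz2, -0.099 for Dohh and -0.11 for Slc3a2. The median of all genes was -0.007 and -0.037 under these scalings. With 1 library left out, Odc1 and its single row ENSMUST00000171737.1 ranged from -0.35 to 0.039, Oaz1 from -0.0078 to 0.18 and Oaz2 from -0.070 to 0.11. Odc1 was 0.097 with the slow-fibre covariate and Oaz2 was -0.0082 with array weights. Among transcript rows, quantile normalization and median centring gave -0.021 and -0.12 for ENSMUST00000180036.7 and -0.048 and -0.15 for ENSMUST00000179620.7 of Oaz1, -0.044 and -0.070 for ENSMUST00000137696.1 of Oaz2, and -0.0086 and -0.029 for ENSMUST00000006611.8 and -0.24 and -0.18 for ENSMUST00000140129.1 of Srm. With 1 library left out, ENSMUST00000179620.7 ranged from -0.0045 to 0.19, ENSMUST00000140129.1 from -0.16 to 0.22, ENSMUST00000112529.7 of Sms from -0.17 to 0.093 and ENSMUST00000152463.7 of Sat1 from -0.14 to 0.072. The last was 0.088 with array weights and 0.17 with the slow-fibre covariate, with which ENSMUST00000028806.11 of Smox was 0.014. The cause was not tested. TPM gives no depth, so the error of low members such as Amd2 and Paox rests on the spread between libraries alone.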

Other observations

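Slc7a1, an importer of arginine and ornithine that was too low to be tested, was 0.533, 0.906 and 0.529 TPM in homozygous and 0.504, 0.414 and 0.263 TPM in WT libraries. The groups did not overlap, but only by the step from 0.504 to 0.529 TPM, and 34.7% of all tested genes had homozygous above WT without overlap. The summed TPM of the 10 polyamine genes was 1888, 1025 and 1193 in homozygous and 1574, 1864 and 2314 in WT replicates 1 to 3. Mat1a, the liver form of methionine adenosyltransferase, was listed at 0 in all 6 libraries.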
